A study of Caenorhabditis elegans with 2 samples.

Results

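The regions described here are the transfer RNA (tRNA) gene loci of Caenorhabditis elegans, read in a chromatin immunoprecipitation experiment on tagged T20F7.1 protein. Every gene of biotype tRNA on the nuclear chromosomes was taken and extended by 250 bp on both sides, which gave 612 loci. Of these, 143 (23.4%, 95% Wilson interval 20.2 to 26.9) held the summit of a peak that the authors retained, and 469 held none. Because neighbouring genes can share a summit, the 143 loci rested on 126 distinct peaks, 4.87% of the 2586 retained peaks.

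The only group was strain OP754, in which the transgene wgIs754 carries T20F7.1::TY1::EGFP::3xFLAG and unc-119(+) in an unc-119 (tm4063) background. Chromatin came from whole L4 larvae of mixed sex aged 48 hours, from cultures synchronised by bleaching and starvation at L1, and was precipitated with an antibody to GFP. The labels list 2 biological replicates of this 1 line as separate biosamples. Both carry the transgene, and no untagged, input or other control was analysed here. Whole animals were used, so a peak cannot be given to a tissue, and a site used in few cells cannot be told apart from a weak site in many.

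tRNA genes are short genes read by RNA polymerase III. Their promoter lies inside the transcribed sequence: the A box near the start and the B box near the end are bound by the factor TFIIIC, which recruits TFIIIB just upstream of the start, and a run of T after the gene ends transcription. The genome carries many identical copies of most tRNA genes, so the amino acid delivered does not name a single locus.

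The genes beneath the strongest peaks are shown first, because the same internal promoter recurs in all of them while their peaks differ in place and strength. Each line gives the gene with its amino acid, then the RefSeq WBcel235 sequence from 5′ to 3′ on the coding strand, with matches to the B box word GTTCNANNC in capitals. The loci are Y38E10A.t1 at chrII:12678314-12678385 (plus strand), C04E7.t1 at chrX:353255-353336 (minus), R04A9.t1 at chrX:410391-410462 (plus), R04D3.t2 at chrX:13307034-13307106 (plus), C33G3.t2 at chrX:14063946-14064018 (minus), C18A11.t2 at chrX:8036685-8036757 (minus) and Y39B6A.t9 at chrV:19126044-19126116 (plus).
Y38E10A.t1 (Ala): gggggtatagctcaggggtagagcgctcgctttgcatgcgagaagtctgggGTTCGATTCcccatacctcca
C04E7.t1 (Leu): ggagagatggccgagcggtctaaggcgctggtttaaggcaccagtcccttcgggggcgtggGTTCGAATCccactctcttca
R04A9.t1 (Gln): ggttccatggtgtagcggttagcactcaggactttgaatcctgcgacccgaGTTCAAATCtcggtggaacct
R04D3.t2 (Val): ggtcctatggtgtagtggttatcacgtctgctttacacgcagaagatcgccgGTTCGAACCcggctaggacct
C33G3.t2 (Lys): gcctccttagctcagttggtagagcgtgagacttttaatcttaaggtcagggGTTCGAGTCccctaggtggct
C18A11.t2 (Arg): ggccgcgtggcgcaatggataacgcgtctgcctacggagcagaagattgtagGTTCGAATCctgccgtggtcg
Y39B6A.t9 (Phe): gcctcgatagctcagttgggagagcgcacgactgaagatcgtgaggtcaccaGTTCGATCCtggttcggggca

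The B box word was present in 587 of the 612 genes (95.9%), starting a median of 21 bases from the gene end. Genes with the word had a retained peak at 139 loci (23.7%), and the 25 genes without it had one at 4 (16%, 6.40 to 34.7). Nearly all genes had both the word and a T run of 4 within 25 bp after the gene, and most genes with both had no peak. The T run was found after 604 genes, of which 143 had a retained peak (23.7%). The 8 genes without it had neither a retained peak (0%, 0 to 32.4) nor a pooled candidate region. That interval includes the share of the genes with the run, so 8 genes are too few to set the groups apart.

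The retained peaks are the authors' list thresholded on the irreproducible discovery rate (IDR), a measure built on how peaks rank in each replicate. All 2586 IDR peaks were among the 2586 strongest pooled regions. IDR status is thus a division on the pooled signal value, the authors' own height per region on a scale not given in the sources used here. The weakest IDR peak had a signal value of 95.6, as had the strongest pooled region outside the list, to 3 digits. At tRNA loci the weakest IDR peak had 95.8 and the strongest pooled region without an IDR peak 95.03.

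tRNA loci held IDR summits more often than the genome as a whole. When the chromosomes were divided into consecutive windows of 572 bp, the median length of an extended locus, 1.43% of windows held an IDR summit, beside 23.4% of tRNA loci. Within 286 bp of their start, which spans a window of that length, 5.54% of protein-coding genes had a summit. Small nucleolar RNA genes, extended likewise by 250 bp, had one at 17.6% of 346 loci (14.0 to 22.0), and small nuclear RNA genes at 10.9% of 129 (6.58 to 17.4). The interval of small nucleolar RNA loci overlaps that of tRNA loci. On the autosomes alone the shares were 16.1% (12.5 to 20.4) for tRNA, 18.8% (14.9 to 23.6) for small nucleolar RNA and 10.3% (6.13 to 16.9) for small nuclear RNA loci, so the higher tRNA share was not seen there against small nucleolar RNA loci. The tRNA interval covers the sampling of loci, treats neighbouring loci as independent and says nothing of read depth, which is unknown.

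Summits lay on the tRNA gene itself or just beside it. Of the 126 peaks, 44 had their summit inside the gene, 51 upstream and 31 downstream. The median position was 14 bp after the gene start, with quartiles at -30.75 and 74.75 bp (negative is upstream), and 108 summits (85.7%) were within 100 bp of the gene midpoint. Summits of the same peak in the 2 replicates differed by a median of 28 bp (SD 50.4 bp), which is large beside a gene of median length 72 bp. Whether a summit belongs to the A box, the B box or the upstream edge can therefore not be read from these lists.

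**Figure D1:**
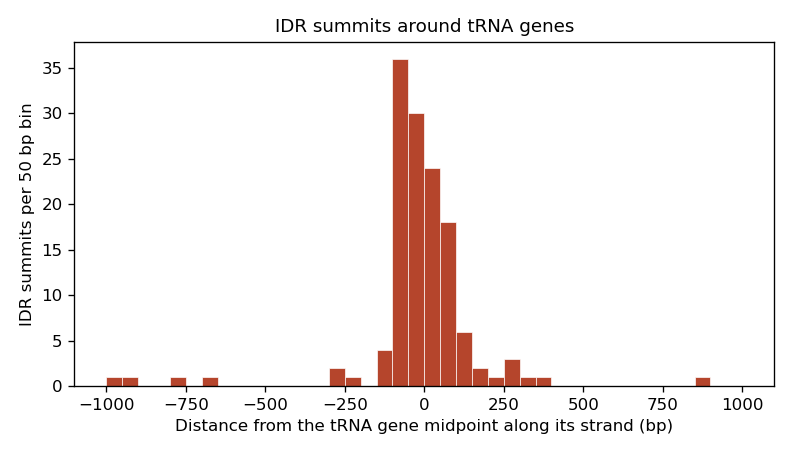
Number of IDR summits in bins of 50 bp against the distance in bp from the midpoint of the tRNA gene, along its strand (negative is upstream). The 4 central bins hold between 18 and 36 summits each, and bins beyond 300 bp hold 0 or 1.

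The pile of summits ended within the extension of 250 bp. Besides the 44 inside genes, 50 summits lay within 50 bp of a gene edge and 21 lay 51 to 100 bp away, so 115 of the 126 were at most 100 bp from a tRNA gene. From there to the limit of 250 bp there were 11 more, and from the limit to 500 bp another 3. The last summit inside was that of C16D9.t4 on chromosome V, at 246 bp with a signal value of 148. The first outside, at 252 bp from Y38E10A.t1, had 1018.

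tRNA peaks were of middle strength among the IDR peaks. Their signal values ran from 95.8 to 493 with a median of 133 and quartiles of 113 and 175. The other 2460 IDR peaks had a median of 144 and reached 6064. Divided by rank into 5 classes of equal size, from strongest to weakest, the IDR list held 6, 28, 38, 31 and 23 tRNA peaks. The strongest class was therefore 1.16% tRNA peaks and the middle class 7.35%.

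**Figure D2:**
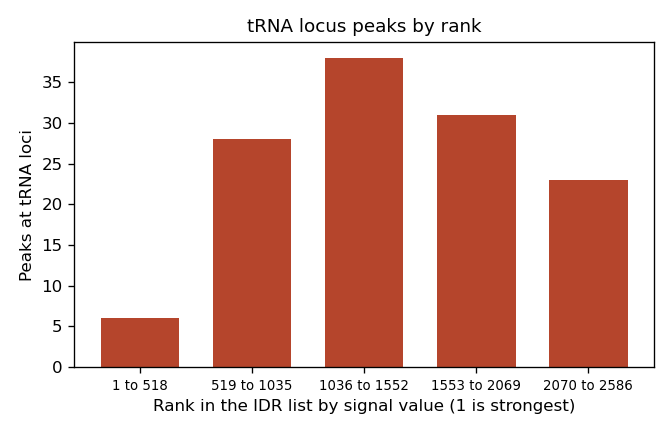
Number of distinct IDR peaks at tRNA loci in each of 5 rank classes of the IDR list, by the authors' signal value with rank 1 the strongest. The strongest class holds 6 and the middle class 38.

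Like the tRNA genes themselves, most of these peaks were away from protein-coding promoters, taken as 500 bp upstream to 100 bp downstream of a gene start, windows in which 7.31% of protein-coding genes had an IDR summit. Of the tRNA peaks 105 (83.3%) lay outside such windows and 21 inside, whereas 52.6% of the other IDR peaks lay outside. Whole extended loci are a wider target than summits. Counted by loci, 78.3% of those with a peak met no promoter window, near the 501 of all 612 (81.9%). The tRNA peaks made up 7.51% of the 1398 IDR peaks outside promoters. Against that class their strength was alike in description: the median signal value was 132 for tRNA peaks outside promoters and 129 for the other 1293. A −log10 q of at least 2 was listed for 33.3% of the former and 34.5% of the latter. The 21 tRNA peaks at promoters had a median of 147, and the other promoter peaks 175.

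The 10 strongest tRNA peaks included 7 on X and 3 at protein-coding promoters. Y38E10A.t1, an alanine tRNA gene on chromosome II, was nearest to the strongest, with signal values of 242 in replicate 1, 280 in replicate 2 and 493 in the pooled list. Its summit was 238 bp upstream of the gene, inside a protein-coding promoter window. The stronger summit just outside the locus, with a signal value of 1018, was on its other side, so this tRNA gene stood between a pair of summits and carried none. C04E7.t1, a leucine tRNA gene on X, had 243 and 224 in the replicates and 462 pooled, with the summit 94 bp upstream and also at a promoter.

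C44B7.t1, a glutamate tRNA gene on chromosome II, had 173 and 171 in the replicates and 347 pooled, at a summit 311 bp after the gene start in a promoter window. R04A9.t1, a glutamine tRNA gene on X, had 137 and 176 and a pooled value of 336, with the summit 175 bp upstream. The 4 strongest summits were thus all outside the gene, by more than 50 bp, and 3 of them at promoters. Of the 10 strongest peaks, 3 were over 100 bp from the gene edge, against 11 of all 126.

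The peaks that follow in strength were closer to the gene. R04D3.t2, a valine tRNA gene on X, had 135 and 140 in the replicates and 276 pooled, with the summit 52 bp into the gene. C33G3.t2, a lysine tRNA gene on X, had 108 and 136 and a pooled value of 249, with the summit 1 bp after its start. R11.t1, a tyrosine tRNA gene on X, had 123 and 148 in the replicates and 265 pooled, 23 bp upstream. In all 3 the replicate 2 value was the higher one.

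Y39B6A.t9, a phenylalanine tRNA gene, carried the strongest tRNA peak on chromosome V, with 126 and 119 in the replicates, 246 pooled and a summit 49 bp upstream. On chromosome I the strongest was that of K07A1.t1, a serine tRNA gene, with 113 and 85.2 in the replicates and 205 pooled. On chromosome IV it was B0350.t1, a lysine tRNA gene, with 92.0 and 110 in the replicates and 191 pooled. The order of the replicates varied from gene to gene. F57F5.t1, an isoleucine tRNA gene on V, was the 1 locus with 2 IDR summits, of which the stronger had 239.

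The replicates had candidate regions at similar numbers of tRNA loci. A candidate region, which is a region of the longer lists of 30000 that precede the IDR step, was present at 310 loci (50.7%) in replicate 1 and at 307 (50.2%) in replicate 2. Both replicates had one at 267 loci (43.6%), where 9.17% of genome windows had a summit in both. A further 43 loci had one in replicate 1 alone and 40 in replicate 2 alone, and 262 had none. The pooled list had one at 305 loci (49.8%), beside 16% of genome windows.

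At the 141 IDR loci with candidates in both replicates the signal values had medians of 69.4 in replicate 1 and 69.7 in replicate 2. On the log2 scale replicate 2 exceeded replicate 1 by a median of 0.05 (SD 0.46), and 76 of the 141 were higher in replicate 2. Over the 122 tRNA peaks with a region within 100 bp in both replicates, the Spearman correlation of the signal values was 0.54. The replicates thus had alike medians but differed in value from locus to locus. Both measures are over members kept by a cut on the pooled value, so the correlation does not describe all tRNA loci. At the loci without an IDR peak the medians over those with a candidate in the replicate were 34.1 and 34.6. These are of the strongest region per locus. The medians of the whole lists, 25.6 and 27.6, are over every region, so the measures are unlike. IDR loci ranged from 28.0 to 243 in replicate 1 and others from 17.8 to 177, so the groups overlap, although the division was made on the pooled value to which both replicates contribute.

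**Figure D3:**
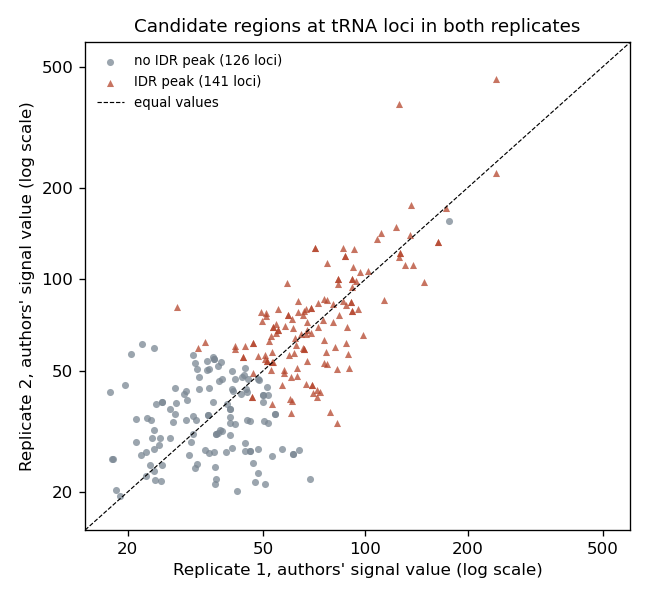
Authors' signal value in replicate 1 and replicate 2 (both axes logarithmic) of the strongest candidate region at each of the 267 tRNA loci with a candidate in both replicates. Triangles are the 141 loci with an IDR peak and circles the 126 without. Both kinds scatter to either side of the dashed line of equal values, with C18A11.t2 and F28H6.t1 the triangles farthest above it.

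Only part of the IDR loci were strong in each replicate by itself. Among the 2586 strongest regions of a replicate, the same number as in the IDR list, 102 of the 143 loci had a region in both, 24 in replicate 1 alone, 13 in replicate 2 alone and 4 in neither. The exceptions named here and in the next paragraph, other than C18A11.t2 and F28H6.t1, were chosen after their values were seen. C16D9.t4 had no candidate inside its locus in either replicate, because the replicates' summits, with 68.4 and 72.9, fell just beyond 250 bp. Y69A2AR.t2 on chromosome IV, with the weakest tRNA peak, had 60.1 in replicate 1 and none in replicate 2.

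At C18A11.t2, an arginine tRNA gene on X, the strongest region in the locus had 126 in replicate 1 and 376 in replicate 2, a log2 ratio of 1.58. The value of 376 belongs to a neighbouring peak 282 bp from the gene in the pooled list, with a pooled value of 733 and 364 in replicate 1, whose summit fell inside the locus in replicate 2 alone. The peak within the locus, with a pooled value of 249, had 126 and 61.1. F28H6.t1, another arginine tRNA gene on X, had 28.0 and 81.0 with 106 pooled, a log2 ratio of 1.53. These ratios compare the strongest region per locus. When regions were matched to the same peak within 100 bp, the largest ratio was toward replicate 1. It was at C02B4.t2, a tyrosine tRNA gene on X, with 89.6 and 28.2 (log2 ratio -1.67). F02H6.t1, a proline tRNA gene on IV, had 82.3 and 28.9 (-1.51).

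F15D3.t1, a lysine tRNA gene on chromosome I, was the only locus without an IDR peak that was among the strongest regions of both replicates. It had 177 in replicate 1, with the summit 8 bp past the gene, and 155 in replicate 2, with the summit inside the gene. The pooled list has no region within 500 bp of it. By pooled value, the strongest loci outside the IDR list were on X: F25F6.t2 (Thr) had a pooled signal value of 95.03 with 44.1 and 48.7 in the replicates. F55F3.t1 (Lys) had 94.3, with 68.9 and 22.1, and T18D3.t1 (Ala) had 94.3, with 63.7 and 27.4. In the last 2 of these, replicate 1 was the higher by far. Some autosomal loci without a pooled candidate were strong in 1 replicate alone. F15B9.t1 (Ala) on V had 90.3 in replicate 2, and ZK1067.t1 (Tyr) on II had 82.3 in replicate 1.

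The X chromosome carries 276 of the 612 tRNA genes (45.1%), and its loci had peaks more often than those of the autosomes. IDR summits were at 89 of 276 loci on X (32.2%, 27.0 to 38.0) and at 54 of 336 on the autosomes (16.1%, 12.5 to 20.4). By distinct peaks, 74 of the 126 tRNA peaks (58.7%) were on X, beside 375 of the 2460 other IDR peaks (15.2%). Windows of the genome showed no such difference for IDR summits, with 1.42% on X and 1.43% on the autosomes. Pooled candidates did differ by chromosome, at 21.3% of windows on X and 14.8% on the autosomes, and at 68.8% of tRNA loci on X and 34.2% on the autosomes.

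Among the autosomes the share ran from 12.7% (6.81 to 22.4) on IV to 22.8% (13.8 to 35.2) on II, with 12.8% on V, 16.7% on I and 17.2% on III. These intervals overlap each other, and those of I, II and III also reach into that of X. Strength did not follow the same order. The median signal value over loci with a peak was 136 on X, 141 on I and 140 on V. It was lower than on X on II (132), III (123) and IV (121). Over all autosomal loci with a peak it was 135. In both replicates X loci more often had a candidate region, at 60.9% of loci on X and 29.5% on the autosomes with one in both.

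**Figure D4:**
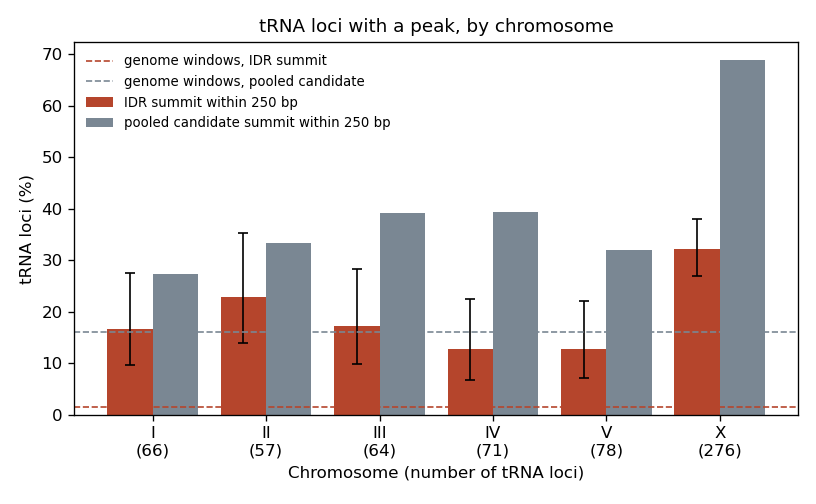
Percent of tRNA loci on each chromosome with an IDR summit (red bars, error bars are 95% Wilson intervals over loci) or a pooled candidate summit (grey bars) within 250 bp, with the number of loci in brackets. Dashed lines mark the same shares in genome windows, 1.43% and 16%, and the X bars stand highest at 32.2% and 68.8%.

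Identical tRNA genes differed in whether they had a peak. The 612 genes have 200 distinct sequences, of which 57 occur in 2 or more copies. Among these 57 families, 42 had some members with a peak and some without, 13 had none with a peak, and 2 had a peak at every member. The 20 families of at least 10 genes held 317 genes, 86 of them with a peak, and the share within a family ran from 6.67% to 60%. Since the gene sequence is the same within a family, it does not separate those members with a peak from those without.

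The 5 largest families all had members of both kinds. The glycine family of 29 identical genes had 8 with a peak, with signal values from 107 to 305. Genes and not peaks are counted here. The glycine genes C12C8.t6 and C12C8.t1 share a summit, as do T10B10.t2 and T10B10.t1. The summit of 305 is shared by M02F4.t1 of this family and M02F4.t2 of the glutamate family. The lysine family of 25 had 5, the proline family of 24 had 7, the aspartate family of 21 had 6 and the glutamate family of 20 had 6. All 6 of the aspartate genes with a peak were on X, where 10 of the 21 lie. Of the 7 proline genes, 6 were among the 13 on X. Among these 6, F46G11.t2 and F46G11.t1 share a summit, as do F23D12.t2 and F23D12.t1.

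A few families stand at the ends of that range and are shown by a member, again with the B box word in capitals, from RefSeq WBcel235. The arginine family of 10 genes (C18A11.t2 above) lies wholly on X and had 6 members with a peak, the highest share. The threonine family of 15 (ZK563.t1, chrX:3371422-3371493, minus) and the histidine family of 11 (C06G1.t1, chrX:16634830-16634901, minus) each had 1. An alanine family of 15 (F15G9.t2, chrX:9743747-9743818, plus) had 7.
ZK563.t1 (Thr, 1 of 15): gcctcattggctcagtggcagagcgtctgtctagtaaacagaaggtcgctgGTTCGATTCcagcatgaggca
C06G1.t1 (His, 1 of 11): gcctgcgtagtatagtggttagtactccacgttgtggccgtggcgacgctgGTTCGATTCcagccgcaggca
F15G9.t2 (Ala, 7 of 15): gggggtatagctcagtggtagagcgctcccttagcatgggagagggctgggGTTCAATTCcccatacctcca

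In the arginine family the pooled signal values of the 6 members with a peak ran from 96.1 at C03A3.t1 to 249 at C18A11.t2. T06H11.t2 and T06H11.t3 share 1 summit of 185, with 91.0 and 84.2 in the replicates. Of the other members, F09B9.t1 had a pooled candidate of 90.1, F09B9.t2 one of 78.4 and F12D9.t4 one of 65.8, just below the IDR limit or well below it. K01A12.t3 had no pooled candidate. Pooled values within the family thus ran from 249 down to no region at all.

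The tryptophan family of 10 identical genes includes the sup genes, known in C. elegans genetics for mutations that make the tRNA read an amber stop codon. Only sup-5 on chromosome III had an IDR peak, with 85.8 and 127 in the replicates and 216 pooled, the strongest tRNA peak of that chromosome. sup-7 on X had a pooled candidate of 81.4, with 37.2 and 46.5 in the replicates, and sup-21 on X one of 44.8. sup-24, sup-29 and sup-33 had no region in any list.

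**Figure D5:**
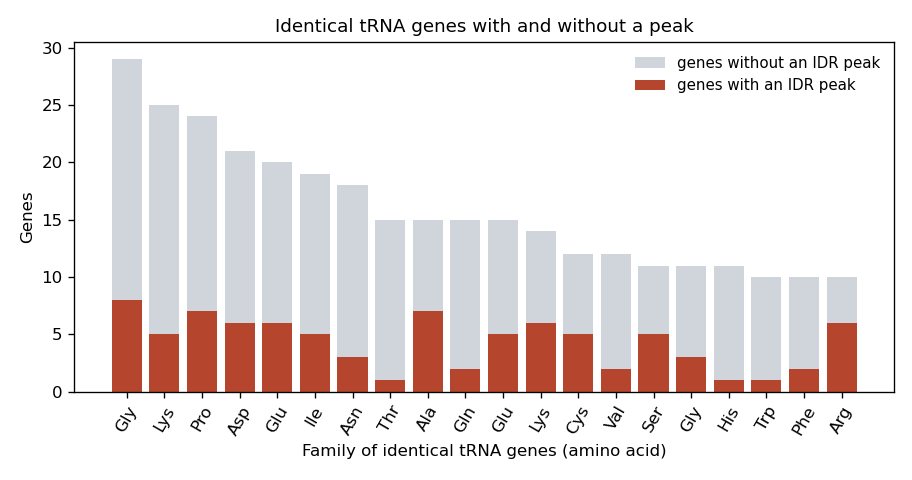
Number of genes in each of the 20 families of at least 10 identical tRNA genes, labelled by amino acid, with the genes that have an IDR peak in red and the others in grey. Every family has members of both kinds, from 1 of 15 for threonine to 6 of 10 for arginine at the right.

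Genes with an identical copy elsewhere had a peak more often than genes of unique sequence, at 122 of 469 (26.0%, 22.2 to 30.2) against 21 of 143 (14.7%, 9.81 to 21.4). On X it was 80 of 219 against 9 of 57, and on the autosomes 42 of 250 against 12 of 86, where the intervals overlap (12.7 to 21.9 and 8.17 to 22.8). Identical copies matter for short reads, which cannot be placed within a repeated stretch by their own sequence, and how the authors placed such reads is not given in the sources used here. Words of 30 bases that recur elsewhere in the genome covered a median of 100% of a multi-copy gene and 45.5% of a unique one. Over the flanks the median was 0% for loci with and without a peak, and over whole loci it was 10.5% with a peak and 10.7% without. The part of read placement in the copy difference was not tested.

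By amino acid, cysteine tRNA genes had the highest share, 5 of 13 (38.5%), followed by alanine with 12 of 34 and glutamate with 13 of 41. Tryptophan with 1 of 12 and histidine with 2 of 20 had the lowest, apart from the single selenocysteine gene, which had a pooled candidate and no IDR peak. The 5 genes with no amino acid in the annotation had neither. With so few genes per amino acid these shares are descriptions, and the amino acids differ in how many of their genes lie on X.

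Some pairs of close tRNA genes shared a summit, and it then mostly lay between them. Of 66 neighbouring pairs with a gap of up to 250 bp, 18 (27.3%) did so. The 126 peaks comprised 108 with 1 tRNA gene in reach and 18 with 2, and none had more. Of the 18 pairs, 15 were on X, 8 were divergent, 3 convergent and 7 on the same strand, and in 7 both genes were identical. Of the 124 loci with a tRNA gene within 250 bp, 74 were on X. A peak was at 30 of those 74 and at 6 of the 50 on the autosomes. Orientation and identity are not given for all 66 pairs, so those counts describe the 18 pairs alone. The summit lay between the genes in 17 pairs, at gaps of 86 to 220 bp. A summit counts as shared only within 250 bp of both genes, so the definition itself favours a place in or near the gap. The exception was C16B8.t2 and C16B8.t3, a pair of proline genes on X with a signal value of 104.

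The strongest shared summit was between the divergent genes M02F4.t2 (Glu) and M02F4.t1 (Gly), with 163 and 133 in the replicates and 305 pooled, 42 bp upstream of the latter. The next was between the serine genes C53C7.t2 and C53C7.t1, divergent as well, with 126 and 122 and a pooled value of 242. The identical glycine genes T10B10.t2 and T10B10.t1, also divergent, had 87.4 and 119 and a pooled value of 202. All 3 had summits in the upstream sequence that both genes share.

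The alanine genes F15G9.t1 and F15G9.t2 follow each other on the plus strand with the smallest gap of these pairs, 86 bp, and had 91.6 and 100.4 in the replicates and 199.8 pooled. The summit, at position 9743695 of X, is in the gap. The stretch is shown because it holds both genes and the summit in 1 view, chrX:9743589-9743818 on the plus strand of RefSeq WBcel235, with the genes in capitals.
F15G9.t1 and F15G9.t2: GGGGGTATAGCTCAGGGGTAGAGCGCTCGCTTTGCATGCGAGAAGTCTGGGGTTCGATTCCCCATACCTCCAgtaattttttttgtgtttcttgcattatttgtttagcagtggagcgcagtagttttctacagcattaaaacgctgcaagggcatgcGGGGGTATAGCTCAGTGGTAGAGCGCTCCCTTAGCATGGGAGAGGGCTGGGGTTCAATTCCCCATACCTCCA

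Distance to the next tRNA gene went with the share of loci with a peak, but not in 1 direction. Loci whose nearest tRNA gene was at most 250 bp away had a peak at 36 of 124 (29.0%), and those more than 10000 bp from another at 69 of 238 (29.0%). Loci with a neighbour over 250 and up to 1000 bp away had one at 10 of 112 (8.93%, 4.92 to 15.7). From there to 10000 bp it was 28 of 138 (20.3%). In the closest class the 36 loci rested on 18 distinct peaks, each counted for both genes, whereas the other classes, from near to far, had 10, 28 and 70 distinct peaks. On X the class from 250 to 1000 bp had 4 of 61 loci against 30 of 74 (15 peaks) for the closest, while on the autosomes it had 6 of 51 against 6 of 50 (3 peaks).

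Shares were also compared by position relative to protein-coding genes. Loci inside a protein-coding gene had a peak at 60 of 290 (20.7%, 16.4 to 25.7) and those outside at 83 of 322 (25.8%, 21.3 to 30.8), with overlapping intervals. Inside, 32 of 166 on the strand of the host gene and 28 of 123 on the opposite strand had one. Loci whose window met a protein-coding promoter window had one at 31 of 111 (27.9%, 20.4 to 36.9), and those that met none at 112 of 501 (22.4%, 18.9 to 26.2). Of the loci with a summit 78.3% met no promoter window, near the 81.9% of all loci. On X the shares were 34.4% inside a protein-coding gene and 31.1% outside, the opposite order, against 13.9% and 19.01% on the autosomes. With a promoter window they were 17 of 36 on X (47.2%, 31.99 to 62.99) and 14 of 75 on the autosomes, and without one 72 of 240 (30%, 24.6 to 36.1) and 40 of 261.

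Short words were counted around the summits as a description. Within 50 bp of the summit on both strands, the B box word GTTCNANNC was found at 37 of 126 tRNA peaks (29.4%), at 2.49% of other promoter peaks, at 3.17% of other peaks outside promoters and in 3.53% of genome windows of the same length. Nearly all tRNA genes hold the word, and summits were placed near them by the choice of loci. Another 5 words were chosen because they are frequent at IDR peaks in general, most of which are not at tRNA loci, so the choice favours lower shares at tRNA peaks. ACGCGC was found at 7 tRNA peaks (5.56%), at 14.7% of other promoter peaks, at 4.10% of other peaks outside promoters and in 1.24% of genome windows. GACGCA was at 3.97%, 12.3% and 6.88% of the same 3 peak classes and in 2.02% of windows.

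ACACTC was at 7.14% of tRNA peaks, 16.2% of other promoter peaks, 7.66% of other peaks outside promoters and 2.92% of windows. For CGTCTC the shares were 7.14%, 10.3%, 10.8% and 2.72%, and for ACGCAG 9.52%, 11.3%, 8.43% and 1.91%, in the same order. ACGCAG and GACGCA can overlap by the letters ACGCA, so their matches are not separate. The tRNA counts were 5 to 12 peaks of 126 for each of the 5 words, and no difference between the classes was tested. Mean GC content was 43.7% at tRNA peaks, 40.4% at other promoter peaks and 38.2% at the rest.

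Other genes read by RNA polymerase III were looked up for comparison. rpr-1, the RNA of ribonuclease P, which trims the 5′ end of tRNA precursors, had an IDR peak with 93.2 and 103.9 in the replicates and 192.8 pooled. mrpr-1, the RNA of the related ribonuclease MRP, had 58.9 and 61.8 and a pooled value of 121. yrn-1, a Y RNA, had no IDR peak and a pooled candidate of 60.6, with 31.3 and 33.7. None of the 16 annotated 5S ribosomal RNA genes had an IDR peak or a pooled candidate. Most of these genes lie in a repeated array on chromosome V, and the part of read placement was not tested.

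Of 18 genes for subunits and factors of the polymerase III machinery, 3 had an IDR summit in the promoter window, where 7.31% of all protein-coding genes had one. rpc-1, the largest subunit of polymerase III, had 464 and 467 in the replicates and 938 pooled. mafr-1, the homolog of the polymerase III repressor Maf1, had 126 and 112 and a pooled value of 231, and rpac-19, a subunit shared with polymerase I, had 93.3 and 109 and 199.6. With 18 genes, 3 is a count too small to set apart from that background. tftc-3, rpc-2 and rpc-25 had pooled candidates alone.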

How the data were processed

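ChIP-seq of 1 group with 2 biological replicates was read from 4 peak lists on ce11, which is WBcel235. The signal value and the −log10 q-value of each region are the authors', per the deposited lists. No source used here names the caller, the aligner or the signal scale, and read depth is unknown. Genes came from Ensembl release 115, and names, amino acids and sequences from RefSeq, matched for 612 of 612 tRNA genes. A locus was called when a summit lay within 250 bp. There is 1 group, so no test was run and no p-value is given, and shares carry 95% Wilson intervals over loci. Named genes are those nearest the 10 strongest peaks, the strongest per chromosome, the 3 strongest loci without an IDR peak, the 2 largest replicate ratios, the 5 largest families and fixed lists of polymerase III genes. Further examples of families, pairs and exceptions were chosen after their values were seen. Members and lists were chosen with earlier results of these data known. Python 3.11.15, numpy 2.4.6, pandas 2.3.3, scipy 1.17.1 and matplotlib 3.10.9 were used, and summit assignment was tested on simulated data.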

Additional observations from a re-analysis of the deposited data

How the results depend on the processing

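Of 54 recomputed values, 45 stayed within 1.5 times the count, the interval of the share or the SD between replicates, and 9 moved. That SD is over single loci or peaks and is a wide bound for a median. The median signal value of 191 with the stronger 50% of IDR peaks, beside 133, counted as within it. With the stronger 50% of IDR peaks 60 tRNA loci and 51 distinct peaks remained, and with a −log10 q of at least 2 there were 53 and 45, with a median signal value of 197. The share of peaks outside promoters was 96.8% with promoters of 250 bp upstream and 50 bp downstream. Candidates among the 2586 strongest of both replicates were at 103 loci in place of 267. With either replicate left out, using the 2586 strongest regions of the other, there were 131 to 146 loci and 118 to 131 peaks. Their median signal value was 67.5 to 72.6. The share outside promoters was 81.4% to 87.0%, the median summit position 14 to 20.5 bp and the multi-copy share 23.9% to 26.2%. Other extensions gave 122 loci at 100 bp and 149 at 500 bp. After seeing the data, replicate summits within 100 bp of each other were required, which left 217 loci and a median log2 ratio of 0.05, both within those bounds. Autosomal loci alone, also added then, kept the median signal, the median summit position and the share outside promoters, but the share of loci with a peak was 16.1% in place of 23.4%. Identity over the gene with 50 bp on both sides left 2 genes with a copy and was not run further. No paired analysis was possible because there is 1 group. Depth limits cannot be given without read counts.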
